A study of Homo sapiens with 9 samples.

Results

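Mitotic cyclins and factors of the anaphase-promoting complex were followed in GM12878 cells exposed to sulforaphane. The 10 genes listed were CCNA2, CCNB1, CCNB2, CDC20, UBE2C, UBE2S, PTTG1, CDCA3, FBXO5 and CKS2. A gene counted as measured when a transcript cluster of the array carried its symbol and no other. By that rule 9 of the 10 were measured, each by 1 of 22011 clusters, and UBE2S was not analysed here. GM12878 is a human lymphoblastoid line of B-cell origin, immortalised with Epstein-Barr virus. Each group held 3 cultures seeded at 900000 cells per ml, all of this 1 line, with 1 Affymetrix Human Exon 1.0 ST array per culture. Cells were harvested untreated at 0 h, or after 8 h or 24 h with 10 µM D,L-sulforaphane, an electrophilic isothiocyanate. The protocol names a DMSO vehicle, but no vehicle array was used here, so time in culture and sulforaphane cannot be told apart. RNA came from each culture separately, but the labels do not say whether cultures of a group were set up on different days. The p-values measure the spread between these cultures.

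The anaphase-promoting complex is a ubiquitin ligase that ends mitosis. Cyclins A and B activate the kinase CDK1 to drive cells into mitosis, and CDC20 then directs the complex to securin and cyclin B, whose destruction lets chromosomes part and cells divide. Transcripts of these factors are low in G1 and in resting cells, and most of them rise in G2 and mitosis. Proliferating lymphoblastoid cells therefore express them, and in a mixed culture fewer cells in G2 and mitosis cannot be told apart from less transcript per cell.

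Promoters of such genes are known for CCAAT boxes, bound by NF-Y, and for the cell cycle genes homology region, a hexamer with TTTGAA as its best known form, read by the DREAM and MuvB complexes. RefSeq windows (GRCh38.p14) from 250 bases before to 50 after a gene's start were available for 8 of the 9 measured genes, all but UBE2C. The 130 bases up to the start are shown 5′ to 3′. Capitals mark CCAAT boxes and 4 forms of the hexamer, which are TTTGAA itself, the form TTTAAA, the form CTTGAA and the rarer form TTCGAA. Both strands were searched, so ATTGG in capitals is a CCAAT box on the reverse strand.
CCNA2 (chr4:121823884-121824013, minus strand): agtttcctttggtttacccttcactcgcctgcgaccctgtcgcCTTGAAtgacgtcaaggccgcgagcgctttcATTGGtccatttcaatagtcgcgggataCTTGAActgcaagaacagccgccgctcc
CCNB1 (chr5:69167020-69167149, plus strand): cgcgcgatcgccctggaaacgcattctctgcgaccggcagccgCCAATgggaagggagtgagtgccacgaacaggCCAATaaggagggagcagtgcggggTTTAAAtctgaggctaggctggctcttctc
CCNB2 (chr15:59105016-59105145, plus strand): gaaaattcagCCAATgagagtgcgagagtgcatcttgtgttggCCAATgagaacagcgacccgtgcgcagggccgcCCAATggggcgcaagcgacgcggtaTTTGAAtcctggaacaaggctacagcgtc
CDC20 (chr1:43358851-43358980, plus strand): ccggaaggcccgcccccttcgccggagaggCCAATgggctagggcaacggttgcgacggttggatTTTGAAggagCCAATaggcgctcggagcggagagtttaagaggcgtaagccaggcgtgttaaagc
PTTG1 (chr5:160421725-160421854, plus strand): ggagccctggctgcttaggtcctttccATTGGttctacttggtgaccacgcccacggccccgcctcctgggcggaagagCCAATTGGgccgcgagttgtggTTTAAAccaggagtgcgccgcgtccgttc
CDCA3 (chr12:6851287-6851416, minus strand): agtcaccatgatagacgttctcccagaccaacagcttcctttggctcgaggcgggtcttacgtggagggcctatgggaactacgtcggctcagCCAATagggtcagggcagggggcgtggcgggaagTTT
FBXO5 (chr6:152983042-152983171, minus strand): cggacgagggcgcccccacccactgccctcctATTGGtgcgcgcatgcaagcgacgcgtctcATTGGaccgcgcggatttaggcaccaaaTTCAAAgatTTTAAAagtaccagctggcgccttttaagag
CKS2 (chr9:89311065-89311194, plus strand): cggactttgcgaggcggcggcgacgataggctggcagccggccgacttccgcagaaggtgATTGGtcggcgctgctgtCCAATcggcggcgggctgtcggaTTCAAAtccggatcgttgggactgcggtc

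In CCNB1, CCNB2, PTTG1 and CKS2 a CCAAT match began 51 to 55 bases before the start and a hexamer 29 or 30 bases before it. CCNA2 had the pair at 56 and 28 bases. In CDC20 the hexamer lay at 65 bases, between CCAAT matches at 100 and 55 bases. The CDCA3 hexamer began 3 bases before the start and ran past it, so its last bases are not shown. FBXO5 has 2 RefSeq starts, and the window of the other start, on the same strand, held neither motif. PTTG1 also has 2, whose windows overlap and hold the same pair.

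**Figure D1:**
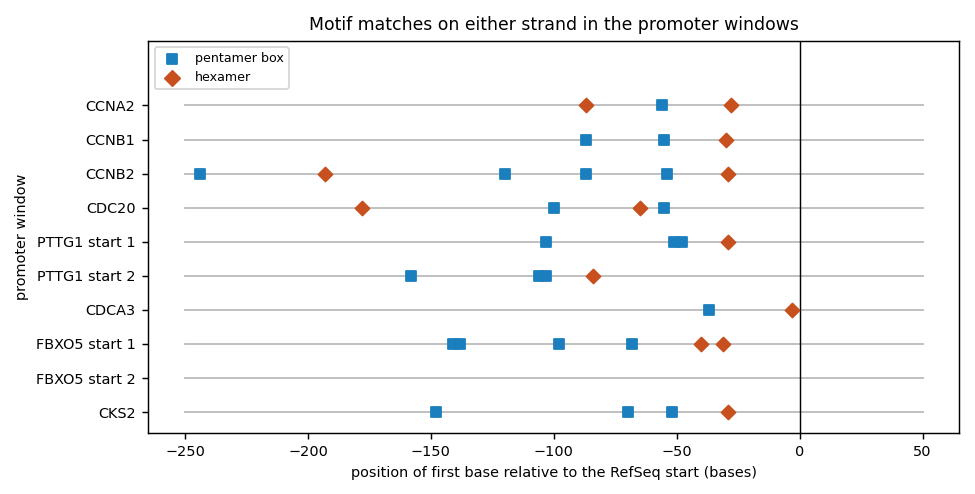
First bases of motif matches relative to the RefSeq start in the 10 promoter windows of 8 genes, in bases. Squares are matches to the CCAAT box and diamonds matches to any of the 4 hexamers, on either strand. Of the 10 windows, 9 hold both kinds, and the second FBXO5 window holds neither.

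A CCAAT match followed by a hexamer 20 to 40 bases downstream, first base to first base, occurred in 9 of the 10 windows. The same pair occurred in 1.61% of all 35116 RefSeq windows. CCAAT alone was present in 34.6% of all windows and any of the 4 hexamers in 32.2%. TTTGAA was in 15.2%, TTTAAA in 12.2%, CTTGAA in 11.2% and TTCGAA in 1.45%. The hexamers and the spacing were chosen after these windows had been read, so the share among the genes is a description of them. The windows of 14 core subunits of the complex held the pair in 0 of 25, with CCAAT in 9 and a hexamer in 4. Of these subunits 10 were measured, and their levels are given further on. A match shows these letters, not a bound site. Whether the motifs bear on the differences between the groups was not tested.

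On the arrays, values were log2 RMA signals, 1 per cluster, with a mean per array between 7.97 and 8.14. On the first principal component untreated replicate 2 was at 54.4, the other 8 arrays between -29.9 and 16.4. Its upper quartile was 9.28, against 9.42 to 9.63 elsewhere. All 10 measured B-cell markers lay above the upper quartile of all clusters, against 1 of 6 T-cell, 1 of 4 plasma cell, 0 of 4 myeloid, 0 of 4 fibroblast and 0 of 4 epithelial markers. The mean signal of the B-cell markers was 11.42 to 11.51 on untreated arrays, 11.40 to 11.52 at 8 h and 11.49 to 11.56 at 24 h. The T-cell marker mean was 7.42 to 7.53, 7.25 to 7.35 and 7.37 to 7.47 in the same order, and the myeloid mean 6.67 to 6.82, 6.54 to 6.60 and 6.53 to 6.67. The plasma cell marker mean was 8.986 to 9.229, 9.177 to 9.350 and 9.288 to 9.315. Its 24 h arrays thus lay above all untreated ones. Among all these marker lists 1 gene, a B-cell marker, was called at 24 h against 0 h, and the part of such shifts in the results was not tested.

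The comparison of 24 h with 0 h asked what differed after 24 h of culture with sulforaphane. All 9 genes had a lower mean at 24 h, and 6 of them fell, by limma with Benjamini-Hochberg adjusted p below 0.05 over all clusters. Those 6 were CDC20, CDCA3, CCNB2, CCNA2, UBE2C and PTTG1. CCNB1, CKS2 and FBXO5 did not pass, and none rose. Of all clusters 0.791% were called lower, 0.831% higher and 1.62% in either direction, 48.7% of the calls being falls. That split was 61.4% after quantile normalization and 60% after centring each array on its median. The median difference of the 9 genes was -0.75, against 0.02 over all clusters.

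CDC20, the co-activator that brings the anaphase-promoting complex to its mitotic substrates, changed most. Its log2 signals were 12.06, 11.73 and 12.14 in untreated replicates 1 to 3, 11.91, 11.48 and 11.86 at 8 h, and 10.43, 10.43 and 10.67 at 24 h. Every 24 h array lay far below the lowest array of the other groups, while the untreated and 8 h arrays overlapped. The mean went from 11.98 ± 0.22 (SD, n = 3) to 10.51 ± 0.13, a difference of -1.47 ± 0.15 (SE) or 2.76-fold lower (limma adjusted p = 0.0086). The call held in 19 of 20 alternative fits and was lost without untreated replicate 3 (-1.38, adjusted p = 0.0518).

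CDCA3, an adaptor that helps degrade the mitotic inhibitor WEE1 and is itself a target of the complex in G1, was the other gene that fell more than 2-fold. Untreated arrays read 9.62, 9.33 and 9.47, 8 h arrays 9.31, 9.23 and 9.32, and 24 h arrays 8.05, 8.33 and 8.31. The 24 h arrays were all far below the other 6, and each 8 h array lay just under the lowest untreated one. The difference at 24 h was -1.24 ± 0.10, or 2.36-fold lower (limma adjusted p = 0.0028). CDCA3 passed in all 20 alternative fits. A second cluster that carries both GNB3 and CDCA3, and was not counted, went from 7.75 ± 0.11 to 7.68 ± 0.07 (-0.07 ± 0.07, limma adjusted p = 0.537). GNB3 and CDCA3 signal cannot be told apart in it.

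The cyclins had wider untreated spreads. CCNA2 encodes cyclin A2, which acts in S phase and G2. Its signals were 11.02, 10.54 and 11.02 untreated, 10.75, 10.77 and 10.68 at 8 h, and 9.96, 9.80 and 10.08 at 24 h. Untreated replicate 2 was the lowest of its group but above every 24 h array, and the difference was -0.92 ± 0.14 (1.89-fold lower, limma adjusted p = 0.0261). CCNB2, a B-type cyclin associated with the Golgi, read 10.11, 9.54 and 9.81 untreated, 10.11, 10.04 and 10.31 at 8 h, and 8.97, 8.92 and 8.78 at 24 h. Here 2 of the 3 8 h arrays were above every untreated one and the 24 h arrays below all others, a difference from 0 h of -0.93 ± 0.14 (1.90-fold lower, limma adjusted p = 0.0284). Both calls held in 12 of 20 alternative fits.

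CCNB1, the main mitotic cyclin, did not pass although its 24 h arrays lay below all others. Its signals were 10.06, 9.33 and 9.97 untreated, 9.99, 9.98 and 9.85 at 8 h, and 9.18, 8.86 and 9.07 at 24 h. Untreated replicate 2 lay 0.46 below its group mean, just above the highest 24 h array. The difference was -0.75 ± 0.18 (limma adjusted p = 0.0933). It was called in 5 of 20 alternative fits, and in 1 of the 9 without 1 array. That 1 was without untreated replicate 2 (-0.98, limma adjusted p = 0.0137). It was also called after quantile normalization (-0.87, adjusted p = 0.0143), after median centring (-0.81, adjusted p = 0.0426) and with array weights of either kind.

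**Figure D2:**
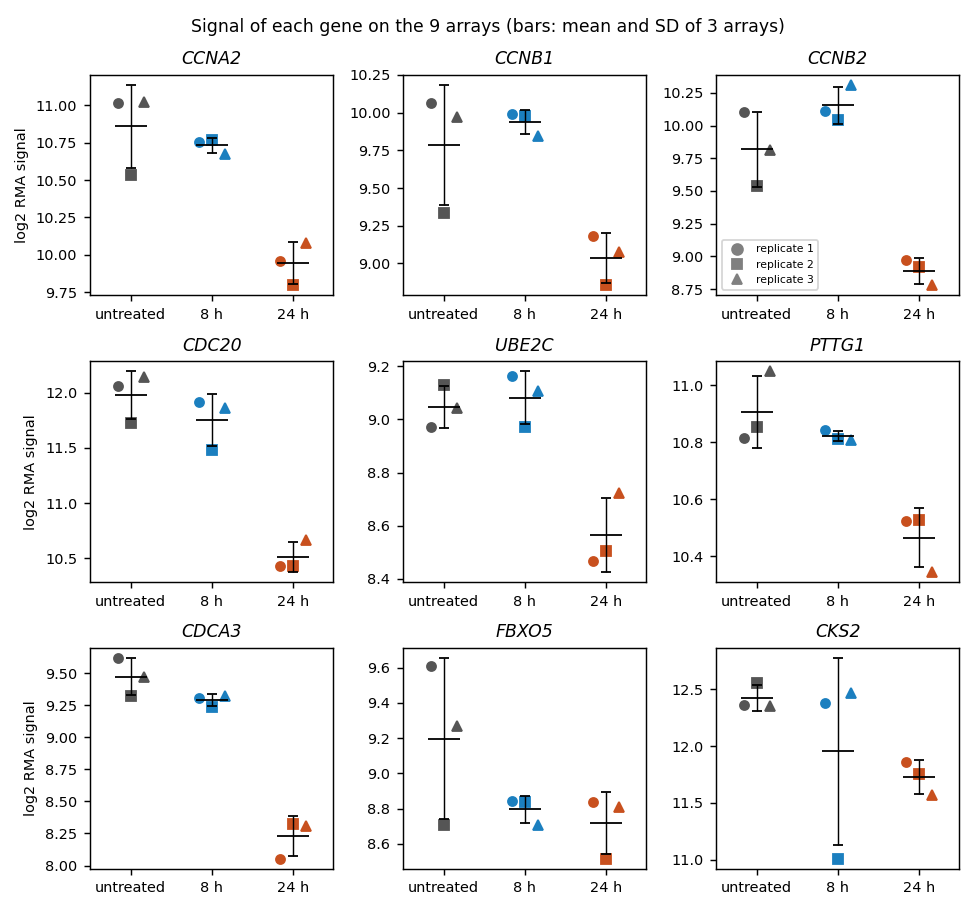
Log2 RMA signal of the 9 measured genes on the 9 arrays, untreated, 8 h and 24 h, with the replicate number as the symbol and the mean and SD of 3 arrays as bars. The 24 h arrays are below all untreated arrays in every panel except FBXO5, and CKS2 has a single low 8 h array at 11.01.

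UBE2C and PTTG1 fell by less. UBE2C is the ubiquitin-conjugating enzyme that starts chains on the complex's substrates. It read 8.97, 9.13 and 9.04 untreated, 9.16, 8.97 and 9.11 at 8 h, and 8.47, 8.50 and 8.72 at 24 h, so untreated and 8 h arrays overlapped and the 24 h arrays were lower. Its difference at 24 h was -0.48 ± 0.09 (1.40-fold lower, limma adjusted p = 0.0462). PTTG1 encodes securin, the inhibitor of separase that the complex destroys at anaphase. It read 10.82, 10.85 and 11.05 untreated, 10.84, 10.81 and 10.81 at 8 h, and 10.53, 10.53 and 10.35 at 24 h, a difference of -0.44 ± 0.08 (1.36-fold lower, limma adjusted p = 0.0445). The call held in 10 of 20 alternative fits for UBE2C and in 9 of 20 for PTTG1. PTTG1 has near-identical copies in the genome, and their part of its signal is uncertain.

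The remaining pair had 1 or more arrays far from their group. CKS2, a small subunit that binds cyclin-dependent kinases, read 12.37, 12.55 and 12.35 untreated, 12.38, 11.01 and 12.47 at 8 h, and 11.86, 11.76 and 11.57 at 24 h. The 24 h arrays were all below the untreated arrays, but 8 h replicate 2 was lower than any other array. That array entered the pooled spread, and the 24 h difference of -0.70 ± 0.34 did not pass (limma adjusted p = 0.285). Without 8 h replicate 2 it was -0.70 ± 0.10 (adjusted p = 0.0318). FBXO5, or EMI1, restrains the complex in S phase and G2. It read 9.61, 8.71 and 9.27 untreated, 8.85, 8.84 and 8.71 at 8 h, and 8.84, 8.52 and 8.81 at 24 h. Untreated replicate 2 lay among the treated arrays, and the 24 h difference of -0.48 ± 0.21 did not pass (limma adjusted p = 0.243), nor without any single array.

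The 24 h arrays lay below all 3 untreated arrays in 8 of the 9 genes, against 8.75% of all clusters. The number that fell depended on single arrays. Leaving out an untreated array gave 6 (replicate 1), 5 (replicate 2) or 1 (replicate 3). Leaving out an 8 h array gave 2 (replicate 1), 6 (replicate 2) or 2 (replicate 3), although those arrays bear on the pooled spread alone. The 6 on leaving out 8 h replicate 2 included CKS2 in place of PTTG1, with UBE2C at an adjusted p of 0.049951. Leaving out any 24 h array gave 2. The 2 were CDC20 and CDCA3 each time, and the 1 was CDCA3. CDCA3 was the gene that passed in all 9 of these fits.

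At 8 h against 0 h, none of the 9 genes was called by limma, against 0.595% of all clusters (0.327% lower, 0.268% higher). CCNB2 alone had an unadjusted p below 0.05 (0.34 ± 0.14, limma adjusted p = 0.317), and its mean was higher. CCNB1 (0.15 ± 0.18) and UBE2C (0.03 ± 0.09) also had higher means, and the other 6 lower ones. These ran from -0.08 ± 0.08 for PTTG1 to -0.47 ± 0.34 for CKS2, and CKS2 was at 0.003 without 8 h replicate 2. The signs of UBE2C and CCNB1 turned in some alternative fits, UBE2C after quantile normalization among them. The 8 h arrays were below all untreated arrays in 1 of the 9, CDCA3, against 8.55% of all clusters. None had all 8 h arrays above the untreated ones, against 9.06%. No single left-out array gave a call at 8 h. Fits with array weights gave 6 calls, of which CCNB2 was higher (0.346) and the others lower. When weights were fitted gene by gene, 1 was called, FBXO5, which was lower (-0.533).

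**Figure D3:**
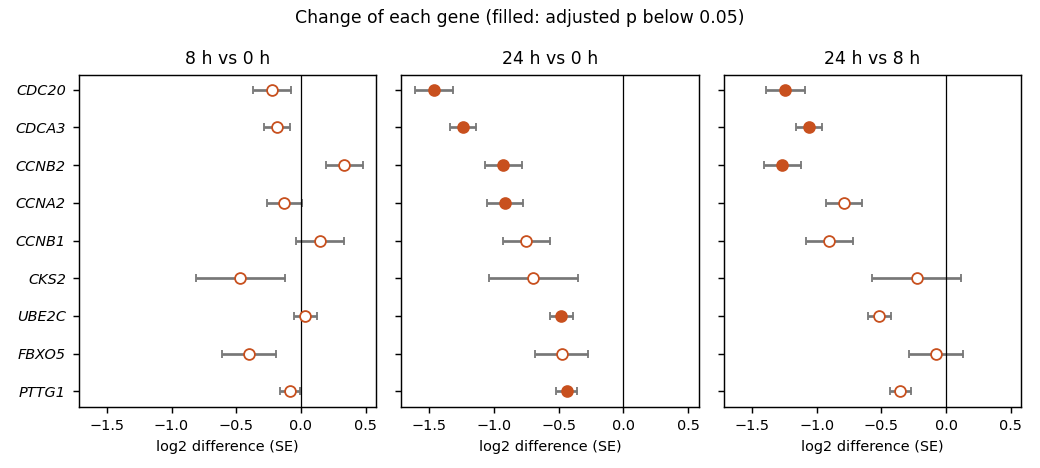
Log2 differences of the 9 genes with standard errors in the 3 comparisons (3 arrays per group), ordered by the difference between 24 h and 0 h, with filled points for adjusted p below 0.05. No point is filled at 8 h, 6 are filled at 24 h against 0 h and 3 at 24 h against 8 h.

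From 8 h to 24 h all 9 genes had lower means and 3 fell, CCNB2, CDC20 and CDCA3, against 0.227% of clusters called lower and 0.327% called in either direction. CCNB2 showed the largest difference, from 10.16 ± 0.14 to 8.89 ± 0.10 (-1.27 ± 0.14, 2.41-fold lower, limma adjusted p = 0.0168). CDC20 differed by -1.24 ± 0.15 (2.37-fold lower, adjusted p = 0.0222) and CDCA3 by -1.06 ± 0.10 (2.08-fold lower, adjusted p = 0.0081). The cyclins CCNB1 (-0.90 ± 0.18, adjusted p = 0.131) and CCNA2 (-0.79 ± 0.14, adjusted p = 0.0829) did not pass by limma, nor did UBE2C (-0.52 ± 0.09, adjusted p = 0.0829) and PTTG1 (-0.36 ± 0.08, adjusted p = 0.168). For these 7 genes all 24 h arrays were below all 8 h arrays, against 6.40% of all clusters.

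FBXO5 (-0.08 ± 0.21) and CKS2 (-0.23 ± 0.34) overlapped between 8 h and 24 h. FBXO5 thus had its lower mean already at 8 h, although that difference did not pass. The count of 3 became 0 on leaving out 8 h replicate 1 or 3, 1 on leaving out any 24 h array and 5 on leaving out untreated replicate 2. The 3 comparisons share arrays, so their values are set side by side and are not independent.

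Profiles over the 9 arrays were compared after centring each gene on its own mean, by the root mean square distance on the log2 scale. CCNA2 was nearest to the mean profile of the other 8 genes (0.127), followed by CCNB1 (0.207) and UBE2C (0.217). CKS2 (0.467) and FBXO5 (0.351) were farthest. The distance also depends on the size of a gene's own variation, its root mean square about its mean. That was 0.251 for UBE2C and 0.665 for CDC20, whose distance was 0.328. For PTTG1 the distance (0.242) exceeded its own variation (0.206), and for FBXO5 too (own variation 0.313). The nearest pairs were CCNA2 with CCNB1 (0.140), UBE2C with PTTG1 (0.154) and CDC20 with CDCA3 (0.164). Of these pairs, the first is marked by a low untreated replicate 2, the next by small differences and the last by large ones.

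Untreated replicate 2 was below its group mean in 7 of the 9 genes, by 0.05 to 0.49. In UBE2C and CKS2 it was the highest untreated array. Among all other genes with a single symbol, the nearest to the mean profile of the 9 were CDCA8 (0.098), CIT (0.105), CENPA (0.107), SMC2 (0.107), HJURP (0.110) and CDKN3 (0.112). Their differences at 24 h against 0 h ran from -0.91 ± 0.14 for CDCA8 to -0.68 ± 0.09 for CENPA. Being picked for this likeness over the same arrays, these genes had to be lower at 24 h.

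**Figure D4:**
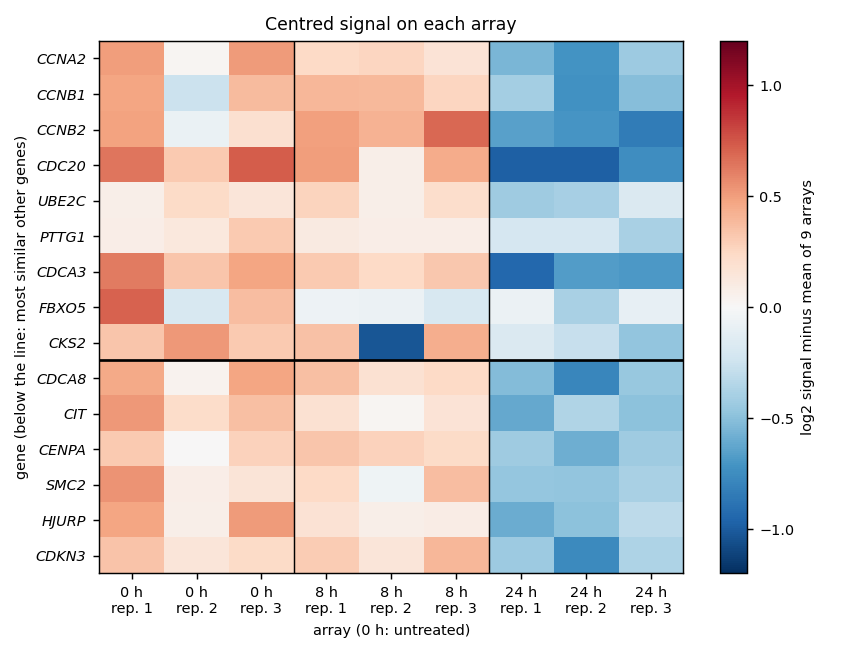
Log2 signal minus each gene's mean over 9 arrays, by array, for the 9 genes (above the line) and the 6 other genes nearest to their mean profile. The 24 h columns are below 0 in all 15 rows, which for the 6 other genes follows from how they were picked. CKS2 is lowest on 8 h replicate 2.

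The other genes of the pathway were taken by role, and their counts stand beside the share of all clusters called. That share was 1.62% at 24 h (0.791% lower), 0.595% at 8 h (0.327% lower) and 0.327% from 8 h to 24 h (0.227% lower). With shares this small, a short list without a call is not set apart from other clusters by that. Of 10 measured core subunits of the complex, which carry out ubiquitin transfer and substrate binding, none was called in any comparison by limma, and their median difference at 24 h was 0.10 (0.04 after median centring and 0.00 after quantile normalization). ANAPC2, the cullin subunit, had the lowest value (-0.34 ± 0.18, adjusted p = 0.303). ANAPC16 (0.23 ± 0.08, adjusted p = 0.181) had the smallest p at 24 h. At 8 h the smallest p-values were those of the scaffold subunit ANAPC5 (-0.20 ± 0.08, adjusted p = 0.299) and ANAPC2 (-0.33 ± 0.18, adjusted p = 0.406). Between 8 h and 24 h they were those of ANAPC4 (0.22 ± 0.09, adjusted p = 0.416) and ANAPC16 (0.18 ± 0.08, adjusted p = 0.478). No fit without a single array called a core subunit at 24 h. Weighted fits called 3 at 24 h, or 1 with gene by gene weights.

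Among 16 other substrates of the complex, 12 fell at 24 h, against 0.791% of all clusters. None rose, and the median was -0.73. The smallest p-values belonged to PLK1 (-1.40 ± 0.10, adjusted p = 0.0014) and AURKB (-1.34 ± 0.09, adjusted p = 0.0014), mitotic kinases, to TPX2, which activates Aurora A on the spindle (-1.03 ± 0.07, adjusted p = 0.0015), and to AURKA, that kinase (-0.73 ± 0.07, adjusted p = 0.0054), all by limma. Leaving out untreated replicate 3 gave 4, and leaving out 8 h replicate 1 gave 6. Leaving out a 24 h array gave 6 (replicate 1), 4 (replicate 2) or 7 (replicate 3). From 8 h to 24 h 6 fell, or 3 when 8 h replicate 1 was left out. They were led by PLK1 (-1.42 ± 0.10, adjusted p = 0.0025), TPX2 (-1.17 ± 0.07, adjusted p = 0.0025), AURKA (-0.91 ± 0.07, adjusted p = 0.0035) and AURKB (-1.07 ± 0.09, adjusted p = 0.0061). At 8 h 1 fell, CDC6, a replication licensing factor (-1.03 ± 0.13, adjusted p = 0.0179). Leaving out untreated replicate 2 gave 4 calls, and each 8 h array, untreated replicate 3 and 24 h replicate 2, when left out, gave no call.

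Of 13 cyclin-dependent kinases, their activators and other regulators of mitotic entry, 5 fell at 24 h and none rose (median -0.40). They included GTSE1, a microtubule-binding protein of G2 (-0.69 ± 0.07, limma adjusted p = 0.0097), WEE1, which inhibits CDK1 (-0.40 ± 0.06, adjusted p = 0.0289), CDK2 (-0.51 ± 0.08, adjusted p = 0.030) and CDK1, the partner of the mitotic cyclins (-1.09 ± 0.18, adjusted p = 0.0328). Leaving out untreated replicate 2 gave 3 calls. There were none when untreated replicate 3 or 24 h replicate 2 was dropped, and 1 when 8 h or 24 h replicate 1 or 3 was dropped. At 8 h none passed, with CDK2 (-0.40 ± 0.08, adjusted p = 0.0768) and WEE1 (-0.27 ± 0.06, adjusted p = 0.0981) nearest, and dropping untreated replicate 2 gave 1 call. GTSE1 was the 1 gene of this list called from 8 h to 24 h (-0.80 ± 0.07, adjusted p = 0.0072). Dropping untreated replicate 1 or 2 or 8 h replicate 2 gave 2 such calls, and dropping 8 h replicate 1 or 3 or 24 h replicate 2 gave none.

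Another list held the G1 co-activator FZR1 and genes linked to the checkpoint or to inhibition of the complex. Of its 9 measured genes, 1 fell at 24 h. It was TRIP13, an ATPase that remodels the checkpoint protein MAD2 (-0.97 ± 0.16, limma adjusted p = 0.0328). Dropping untreated replicate 2 gave 2 calls, and dropping either untreated replicate 3 or a treated array gave none. None was called in the other comparisons, except 1 at 8 h and 2 from 8 h to 24 h when untreated replicate 2 was dropped. TRIP13 (-0.54 ± 0.16, adjusted p = 0.168) and FZR1 (0.09 ± 0.06, adjusted p = 0.497) had the smallest p-values at 8 h. Between 8 h and 24 h BUB1, a checkpoint kinase (-0.74 ± 0.16, adjusted p = 0.150), and FZR1 (-0.17 ± 0.06, adjusted p = 0.386) did.

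None of 11 cohesin and separase regulators was called in any comparison. The smallest p-values at 24 h were those of SMC1A, a cohesin subunit (-0.56 ± 0.12, adjusted p = 0.0598), and SGO1, which protects cohesin at centromeres (-0.85 ± 0.21, adjusted p = 0.0924). With replicate 2 of the untreated or the 8 h group dropped, 1 was called at 24 h, and in the former case also 1 from 8 h to 24 h. At 8 h the cohesin release factor WAPL (0.27 ± 0.09, adjusted p = 0.231) and its partner PDS5B (0.26 ± 0.12, adjusted p = 0.352) had the smallest p-values. Between 8 h and 24 h these were RAD21, the subunit that separase cuts (-0.26 ± 0.08, adjusted p = 0.307), and SGO1 (-0.71 ± 0.21, adjusted p = 0.270).

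Of 16 cyclins of other phases or functions, none was called at 24 h (median 0.14, or 0.02 after quantile normalization), although 2 were when untreated replicate 1 was dropped and 1 when 8 h replicate 2 was. CCNE2, which activates CDK2 at the G1/S border, fell at 8 h (-1.17 ± 0.15, limma adjusted p = 0.0193) and was at -0.56 ± 0.15 at 24 h (adjusted p = 0.115). CCNL2, a cyclin linked to RNA splicing, was at 0.43 ± 0.09 at 24 h (adjusted p = 0.052). From 8 h to 24 h CCNE2 (0.61 ± 0.15, adjusted p = 0.208) and CCNL2 (0.30 ± 0.09, adjusted p = 0.262) had the smallest p-values, with none called. The 8 h count of 1 became 2 on dropping untreated replicate 1 and 0 on dropping any 8 h array, untreated replicate 3 or either of 24 h replicates 2 and 3. At 8 h the mitotic cyclins CCNA2, CCNB1 and CCNB2 were not called, and whether CCNE2 differed from them in timing was not tested.

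The SCF ligase is a relative of the anaphase-promoting complex. The list on it also held its ubiquitin-conjugating enzymes, NEDD8 and the deubiquitinase OTUD7B, which is not an SCF component. All 10 measured genes of that list had higher means at 24 h (median 0.30), or 9 of 10 after quantile normalization or median centring, with none called. Over all clusters the median was 0.02. The 24 h arrays lay above all untreated arrays in 15.6% of clusters and below all of them in 8.75%. BTRC (0.41 ± 0.10, limma adjusted p = 0.0841) and SKP1 (0.91 ± 0.26, adjusted p = 0.135), the substrate adaptor and its linker, had the smallest p-values, also at 8 h (0.39 ± 0.10, adjusted p = 0.119, and 0.78 ± 0.26, adjusted p = 0.226). Those between 8 h and 24 h were the F-box proteins FBXL5 (0.42 ± 0.17, adjusted p = 0.434) and FBXW11 (0.18 ± 0.14, adjusted p = 0.708).

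Among 13 regulators of G2 and mitotic transcription, 2 fell at 24 h, FOXM1 (-0.99 ± 0.10, adjusted p = 0.0076) and MYBL2 (-1.11 ± 0.13, adjusted p = 0.0132). Both are activators of the mitotic programme. Dropping untreated replicate 3 left 1 call. At 8 h none was called, with MYBL2 at -0.46 ± 0.13 (adjusted p = 0.144) and E2F1, an activator of S-phase genes, at -0.36 ± 0.10 (adjusted p = 0.138). FOXM1 was also the 1 called from 8 h to 24 h (-0.98 ± 0.10, adjusted p = 0.0091), a call lost without 8 h replicate 1 or 3 or 24 h replicate 2.

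**Figure D5:**
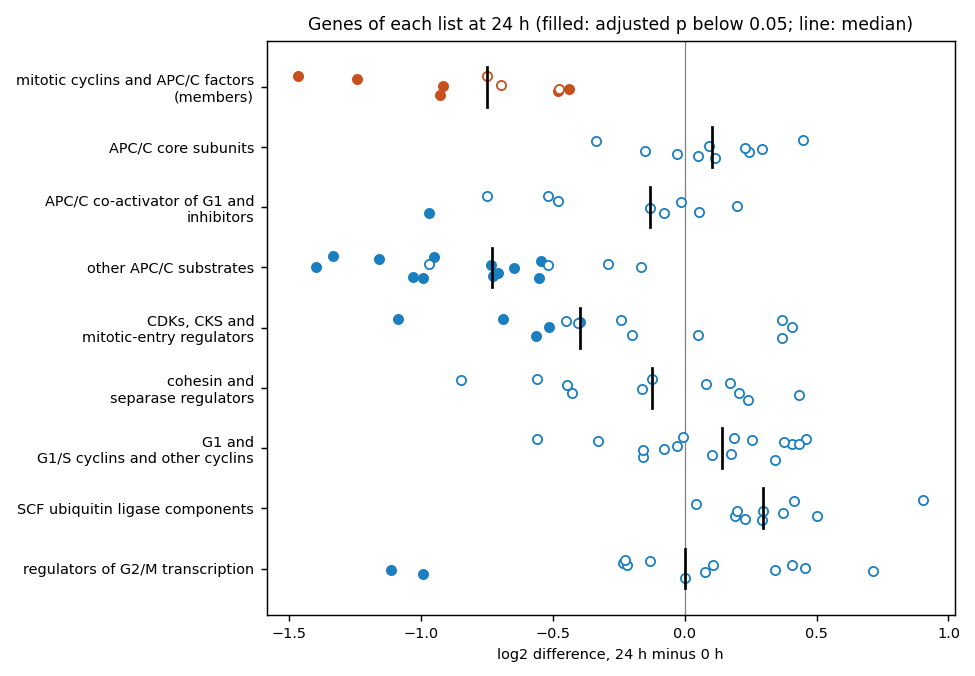
Log2 difference of 24 h minus 0 h for the 9 genes and 8 lists of related genes, with 1 point per gene, filled for adjusted p below 0.05, and a line at each median. The medians are -0.75 for the 9 genes, -0.73 for other substrates of the complex and 0.10 for its core subunits.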

How the data were processed

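Total RNA from 9 cultures was hybridised to Affymetrix Human Exon 1.0 ST arrays. Per the labels, the authors summarised core transcript clusters with gene-level RMA and sketch-quantile normalization in Affymetrix Expression Console and deposited log2 signals. Tool versions, the annotation release and the build behind the array were not given in the sources used here. Of 22011 clusters, 14432 carried 1 gene symbol, 2408 several and 5171 none in the platform annotation, whose symbols were updated through RefSeq for the lists. A symbol with several clusters took the one with the highest mean over 9 arrays.

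All clusters were fitted as deposited with limma 3.58.1 (R 4.3.3), with 1 mean per group over all 9 arrays. Tests were two-sided with eBayes and Benjamini-Hochberg adjustment within each of 3 comparisons, and calls were made at adjusted p below 0.05. The fit was tested on simulated data. Arrays give no counts, and their number limits the precision. Some clusters (165 untreated, 438 at 8 h, 364 at 24 h) had exactly equal values on all 3 arrays of a group, but none of the 9 genes did. The members, lists and tests were chosen with earlier results of these data known. Text names all members, up to 4 called genes per list and comparison by smallest p (or the 2 smallest where none was called), and the 6 genes nearest in profile. Of 119 list genes 98 were measured. Alternatives covered normalization, centring, dim clusters, eBayes, weights, samples fitted, the replicate block, the threshold, averaged rows and each array left out. Gene by gene weights were added after seeing the data.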

Additional observations from a re-analysis of the deposited data

How the results depend on the processing

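Each comparison was refitted in 20 alternatives, 9 of them without 1 array. The count of 0 genes at 8 h rose to 6 with array weights, CCNB2 being higher and the other called genes lower. It rose to 1 with gene by gene weights (FBXO5, lower), and was 0 without any single array. The weights were fitted without convergence by the default method, which gave untreated replicate 3 a weight of 29.8. The count of 6 at 24 h against 0 h became 2 when only the 2 groups were fitted and 2 at adjusted p below 0.01. It was 9 with array weights, 8 with gene by gene weights and 7 after quantile normalization or median centring, with a range of 1 to 6 without 1 array. The count of 3 from 8 h to 24 h became 5 after quantile normalization, 5 without clusters below the median, 7 with array weights, 7 with gene by gene weights and 1 at adjusted p below 0.01. It was 2 when only the 2 groups were fitted and 4 after median centring, with a range of 0 to 5 without 1 array.

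Turned signs were all in differences that were not called. At 8 h UBE2C was at -0.019 after quantile normalization, -0.004 without untreated replicate 1 and -0.007 without 8 h replicate 1. CCNB1 was at -0.015 with array weights, -0.025 with gene by gene weights and -0.078 without untreated replicate 2, and CKS2 at 0.003 without 8 h replicate 2. From 8 h to 24 h CKS2 was at 0.033 without 8 h replicate 3 and FBXO5 at 0.025 without 24 h replicate 2. Over the fits without 1 array, the 8 h difference ranged from -0.078 to 0.288 for CCNB1, -0.007 to 0.090 for UBE2C and -0.729 to 0.003 for CKS2. From 8 h to 24 h it ranged from -0.700 to 0.033 for CKS2 and -0.135 to 0.025 for FBXO5.

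The labels give same-numbered cultures a number in common and state no pairing, so whether they shared anything else is not known. Deviations of same-numbered arrays correlated between -0.14 and 0.39, and 5 of 9 arrays correlated best with their own number. With the replicate block, 4 genes were called at 24 h against 0 h, 3 from 8 h to 24 h and 0 at 8 h.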

Other observations

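CKS2 on 8 h replicate 2 was 0.95 below its group mean, and only 24 of 22011 clusters (0.109%) were at least as low on that array. Besides CKS2, 1 of the 24 carried a single symbol, RAP1B, a small GTPase, which was lower still. The others carried no symbol or several.

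FBXO5 and CCNB1 were low on untreated replicate 2 by 0.49 and 0.46. On that array 6.78% and 8.14% of clusters, in that order, were at least as far below their group mean.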
